A study of Mus musculus with 32 samples.

Results

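The messenger RNAs of adult haemoglobin and of its haem supply were followed through the muscle, liver and hypothalamus of mice with a muscle mitochondrial defect, as a measure of the blood in each sample. The 5 genes are the adult globins and the red cell haem enzyme, taken by name without a threshold on any value, though earlier results of these data were known: Hba-a1 and Hba-a2, which encode the alpha chain of haemoglobin, Hbb-bs and Hbb-bt, which encode the adult beta chain, and Alas2, the red cell enzyme that starts haem synthesis. They are 5 of the 55401 genes in the count tables, and all 5 passed the filter on low counts in every tissue. The mutant animals (COX10 KO) carried floxed Cox10 alleles together with a Cre driven by Myl1, a gene of skeletal muscle fibres; the other animals were their controls (CTL). All were C57BL/6 mice of 200 days. Polyadenylated RNA was read from its 3′ end in 32 libraries: 6 COX10 KO and 6 CTL of calf muscle, 6 COX10 KO and 6 CTL of liver (numbers 1 to 3 labelled female, 4 to 6 male, in both tissues), and 4 COX10 KO and 4 CTL of hypothalamus (all male). The labels number the libraries but do not say whether equal numbers in different tissues came from 1 mouse, and no source used here mentions perfusion of the animals. The labels also do not say whether the libraries of a group were from separate animals, so p-values measure the spread between these libraries.

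Haemoglobin is a tetramer of alpha and beta chains, each holding a haem. Red cells lose their nucleus before they enter the circulation, and the youngest of them, the reticulocytes, keep globin mRNA for a short time, so a solid organ that was not flushed of blood brings globin mRNA into its RNA. Alas2 belongs to the same cells, and every other nucleated cell starts haem synthesis with its sister enzyme Alas1. COX10, the deleted enzyme, converts haem into haem O, the precursor of the haem A of cytochrome c oxidase. In tissue RNA, fewer red cells and less globin mRNA per red cell cannot be told apart.

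The genes lie at 3 places in the mouse genome (GRCm38). Hba-a1 (ENSMUSG00000069919) spans chromosome 11, 32283511 to 32284465, and Hba-a2 (ENSMUSG00000069917) spans 32296489 to 32297298, both on the plus strand. Hbb-bs (ENSMUSG00000052305) spans chromosome 7, 103826534 to 103828096, and Hbb-bt (ENSMUSG00000073940) spans 103812524 to 103813996, both on the minus strand. Alas2 (ENSMUSG00000025270) spans chromosome X, 150547375 to 150570638, on the plus strand, inside the bounds of Apex2, which runs the other way. The promoters of Hba-a1, Hbb-bs and Alas2 are shown because these 3 genes stand for the alpha chains, the beta chains and the haem supply, which behaved unlike each other in the libraries. Each line runs 5′ to 3′ from 250 bases before the RefSeq start of transcription (GRCm38.p6), and capitals mark 4 short words found on either strand, GATAA (the core read by GATA factors), CACCC (read by KLF factors), CCAAT and ATAAA.
Hba-a1, chr11:32283422-32283721, plus strand: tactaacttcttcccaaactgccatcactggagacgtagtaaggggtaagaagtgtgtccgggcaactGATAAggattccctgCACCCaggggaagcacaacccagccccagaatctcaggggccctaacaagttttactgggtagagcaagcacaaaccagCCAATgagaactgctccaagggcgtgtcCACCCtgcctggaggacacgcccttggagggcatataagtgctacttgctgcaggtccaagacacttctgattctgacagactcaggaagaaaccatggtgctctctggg
Hbb-bs, chr7:103827879-103828178, minus strand: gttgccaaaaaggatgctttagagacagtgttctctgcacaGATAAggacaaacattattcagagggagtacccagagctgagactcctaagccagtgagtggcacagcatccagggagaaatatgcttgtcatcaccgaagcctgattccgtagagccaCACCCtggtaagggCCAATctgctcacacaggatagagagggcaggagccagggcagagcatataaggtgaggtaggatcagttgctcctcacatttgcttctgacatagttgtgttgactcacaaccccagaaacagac
Alas2, chrX:150547167-150547466, plus strand: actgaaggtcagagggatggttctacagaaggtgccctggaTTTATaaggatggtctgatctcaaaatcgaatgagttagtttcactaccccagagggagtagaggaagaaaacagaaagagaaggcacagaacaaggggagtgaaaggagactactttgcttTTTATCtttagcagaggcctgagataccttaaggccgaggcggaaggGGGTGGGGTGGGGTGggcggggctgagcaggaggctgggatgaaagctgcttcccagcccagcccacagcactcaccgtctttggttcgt
The Hba-a2 promoter matched that of Hba-a1 at 297 of 297 bases once it was shifted by 3 bases, whereas the Hbb-bs and Hbb-bt promoters shared 168 of 299 bases (56.2%). GATAA and CACCC occurred in all 5 promoters, against 25.4% and 57.5% of the 32817 promoters of the same length. CCAAT occurred in the 4 globin promoters (37.4% of all promoters), and ATAAA in those of Hbb-bt and Alas2 (40.0%); in Alas2, 1 ATAAA and the GATAA overlap on the minus strand. These are matches of letters, and no binding was measured.

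The alpha genes are also close to identical where the reads fall. In the last 300 bases of the transcript, 129 of the 215 windows of 86 bases, the read length, were the same in Hba-a1 as in Hba-a2 (60.0%), and 56 of 215 windows (26%) of Hbb-bs were found in Hbb-bt. The division of counts within each pair is therefore uncertain, and sums of the pair are given beside the single genes. How the counting treated reads that fit both genes of a pair is not given in the sources used here. If such reads were left out, a sum does not restore them, and the loss would differ between alpha genes, beta genes and Alas2. No window of Alas2 was found in another gene, but the strand setting of the counting is not given in the sources used here, so reads of Apex2 inside Alas2 could not be told apart from its own. Within the limit of the shared reads, levels of different genes can be set side by side, since counts of 3′ reads do not grow with transcript length. They were scaled within each tissue to CPM, counts for every 1000000 counts of a library, with TMM factors unless plain totals are named.

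Depth set the precision. The libraries held between 434494 counts (CTL muscle 2) and 22321322 counts (CTL hypothalamus 1), and the counts of Alas2 were as low as 4 in KO muscle 5 and in CTL muscle 2. Defining markers of each tissue were abundant in its own libraries. Summed over 8 genes, muscle markers took 65918 to 129127 plain CPM of the muscle libraries, and liver markers took 98827 to 213773 plain CPM of the liver libraries. The liver markers also reached 3367 plain CPM in CTL muscle 2, against 13.7 to 395 plain CPM in the other 11 muscle libraries, and their part in its values was not tested. Muscle markers reached 590 plain CPM in COX10 KO liver 6 and 127 plain CPM in COX10 KO liver 4. The remaining liver libraries had 1.37 to 34.5 plain CPM, and the part of muscle RNA in the liver values was not tested. Cox10 itself averaged 113 ± 16.2 CPM in COX10 KO muscle and 110 ± 42.3 CPM in CTL muscle (SD, n = 6 each), a log2 fold change of 0.06 (SE 0.23, adjusted p = 0.907 by the edgeR quasi-likelihood test). Whether the 3′ reads lie outside the deleted part was not checked, so this level does not test the labels. Myl1 had 4772 to 8466 plain CPM in COX10 KO muscle and 7613 to 13621 plain CPM in CTL muscle. In liver, CTL 1 (labelled female) and CTL 4 (labelled male) carried sex-linked transcripts of the other sex.

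Haemoglobin mRNA was a small and uneven part of every library. The 4 globin genes together took a median of 0.172% of all gene counts over the 32 libraries, between 0.0555% in CTL hypothalamus 1 and 1.60% in CTL liver 3. By tissue the range was 0.118% to 0.286% in COX10 KO muscle and 0.106% to 1.00% in CTL muscle, 0.173% to 0.271% in COX10 KO liver and 0.131% to 1.60% in CTL liver, and 0.118% to 0.217% in COX10 KO hypothalamus and 0.0555% to 0.172% in CTL hypothalamus. The medians over all libraries of a tissue were 0.187% in liver, 0.167% in hypothalamus and 0.140% in muscle, and the ranges of all 3 tissues overlapped, so no order of the tissues can be read from them. Counting error was small beside this spread: the exact 95% binomial interval (Clopper-Pearson) was 1.58% to 1.62% in CTL liver 3 and 0.137% to 0.160% in CTL muscle 2, the shallowest library. These intervals cover counting error only.

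In muscle the comparison asks whether the loss of COX10 in the fibres went with a change in blood mRNA. The alpha chain genes and Alas2 were lower in COX10 KO muscle on average, but the CTL average was set by 1 library. Hba-a1 had 211.8, 138.9, 148.5, 180.9, 99.7 and 181.5 CPM in COX10 KO muscle 1 to 6, against 156.5, 112.6, 3307, 201, 348.4 and 479.6 CPM in CTL muscle 1 to 6. The groups overlapped, with COX10 KO muscle 1 above 3 of the CTL libraries, and CTL muscle 3 stood far above all others. Hba-a2 had 129.6, 98.3, 101.8, 116.9, 70.6 and 112 CPM in COX10 KO muscle, against 97.9, 57.2, 1918, 131.5, 212.3 and 289.7 CPM in CTL muscle, which is the same order of the high libraries. The alpha genes were lower in COX10 KO muscle by a log2 fold change of -2.0 for Hba-a1 (SE 0.66) and -1.87 for Hba-a2 (SE 0.65), and neither passed the threshold of 0.05 (adjusted p = 0.0549 and 0.0642, edgeR quasi-likelihood test). Their sum gave -1.95 (SE 0.66, adjusted p = 0.0593, edgeR).

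The beta chain genes did not follow the alpha genes. Hbb-bs, the most abundant of the 4, had 1155, 884.5, 904.8, 1148, 813.9 and 2119 CPM in COX10 KO muscle, against 1035, 917.1, 5059, 1529, 543.8 and 568 CPM in CTL muscle. CTL muscle 5 and 6, which were high for the alpha genes, were the lowest of all 12 libraries here. The fold change was -0.31 on the log2 scale (SE 0.49, 95% interval -1.35 to 0.73, adjusted p = 0.719, edgeR). Hbb-bt had 66.5 to 170 CPM in COX10 KO muscle (median 110) and 67.0 to 930 CPM in CTL muscle (median 106), a log2 fold change of -0.81 (SE 0.56, adjusted p = 0.357, edgeR). Alas2 had 5.73, 5.34, 1.59, 3.25, 2.04 and 7.52 CPM in COX10 KO muscle, against 3.37, 7.38, 82.7, 6.86, 3.64 and 9.28 CPM in CTL muscle, a log2 fold change of -1.78 (SE 0.70, adjusted p = 0.103, edgeR). CTL muscle 3 again stood far above, and on this scale COX10 KO muscle 3, 4 and 5 lay below all 6 CTL libraries. On plain totals COX10 KO muscle 4 (3.27 CPM) was above CTL muscle 1 (3.18 CPM). The counts of Alas2 in COX10 KO muscle 3, 4 and 5 were 10, 19 and 4.

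**Figure D1:**
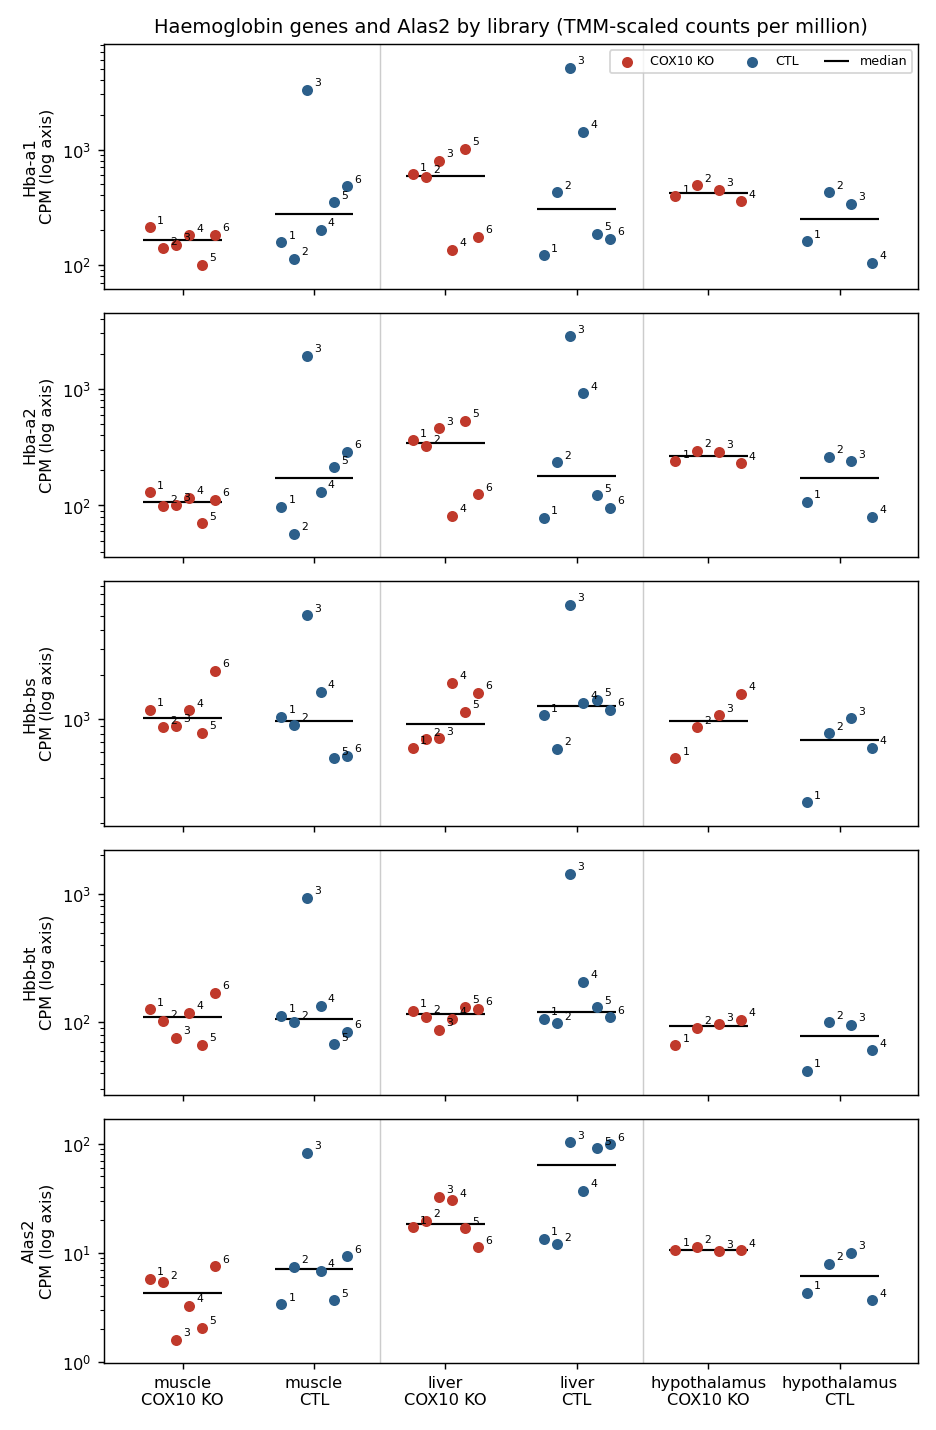
Each panel plots 1 gene in TMM-scaled CPM on a log axis, with a point for each library, numbered by replicate, COX10 KO in red, CTL in blue and the group median as a line. CTL muscle 3 and CTL liver 3 lie above every other library of their tissue for each of the 4 globin genes, with Hba-a1 at 3307 and 5116 CPM.

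None of the 5 genes was called in muscle, where 14.3% of the 11636 genes tested were called and 29.7% had an unadjusted p under 0.05. At an unadjusted p under 0.05, 3 of the 5 stood (Hba-a1, Hba-a2 and Alas2), and DESeq2 called 1, Hba-a1 (adjusted p = 0.0496). Exact two-sided permutation tests over the 12 libraries gave p = 0.0996 for Hba-a1, 0.123 for Hba-a2, 0.784 for Hbb-bs, 0.684 for Hbb-bt and 0.126 for Alas2, where the smallest possible value was 0.00216. Without CTL muscle 3 the log2 fold changes were -0.53 for Hba-a1, -0.42 for Hba-a2, 0.36 for Hbb-bs, 0.15 for Hbb-bt and -0.34 for Alas2. With the first principal component of the other genes as a covariate, which separated all COX10 KO from all CTL muscle libraries, Hba-a1 turned to 1.08 (SE 2.13) and Hba-a2 to 0.94 (SE 2.08).

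The CTL libraries of muscle and liver numbered 3 held more of all 5 members than any other library of their tissue on plain totals, in unlike proportions. Over plain totals, Hba-a1 in CTL muscle 3 was 16.3 times the median of the other 11 muscle libraries, Hba-a2 14.6 times, Alas2 13.2 times, Hbb-bt 7.79 times and Hbb-bs 4.64 times. In CTL liver 3, Hbb-bt was 13.2 times the median of the other 11 liver libraries, Hba-a2 10.9 times, Hba-a1 10.8 times, Hbb-bs 5.70 times and Alas2 5.16 times. Hbb-bs had the smallest excess of the globin genes in both. The labels do not say whether these libraries were of the same animal.

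The red cell's other genes separated the libraries further. Of 36 such genes listed, membrane skeleton, blood group antigen and transcription factor genes among them, 35 matched a gene in the tables (Ahsp did not). CTL liver 3 had the highest plain CPM of the 12 liver libraries for 26 of the 35 detected, and the next library for 4. It held 71 counts of Slc4a1, the anion exchanger of the red cell membrane, against 4 in the other 11 liver libraries together. It held 51 counts of Hemgn, an erythroid nuclear protein, against 5, and 36 counts of Rhd, a Rhesus antigen, against 1. For Gata1, the transcription factor of erythroid cells, it held 9 counts and the other 11 libraries none, and Ermap, Tspo2, Rhag and Epb42 were likewise found there alone, with 13, 11, 9 and 6 counts. Such low counts show where a gene was detected and give no precise level.

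CTL muscle 3 was less complete. It was highest for 10 of the 34 genes detected in muscle, against 7 for CTL muscle 2, the shallowest library. It held 10 counts of Slc4a1 against 1 in the other 11 muscle libraries together, and 24 of Tent5c against 84, but none of Hemgn or Gata1. Ank1 and Sptb, a red cell ankyrin and spectrin that muscle also transcribes, were not raised there, with 492 and 117 plain CPM against medians of 533 and 131 plain CPM in the other libraries. Neutrophil markers were high beside the members in CTL liver 3 and not in CTL muscle 3: 11 neutrophil genes summed to 130 plain CPM in CTL liver 3, against 3.09 to 28.1 plain CPM in the other liver libraries, and to 1.6 plain CPM in CTL muscle 3. In muscle it was CTL 2 that was high, at 69.0 plain CPM. CTL liver 3 was also the highest liver library for platelet markers (54.2 plain CPM, against 6.38 to 25.2 in the other 11), macrophage markers (1543 plain CPM, against 234 to 1428) and lymphocyte markers (49.7 plain CPM, against 3.91 to 40.7). The part of these cells in the globin values was not tested.

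**Figure D2:**
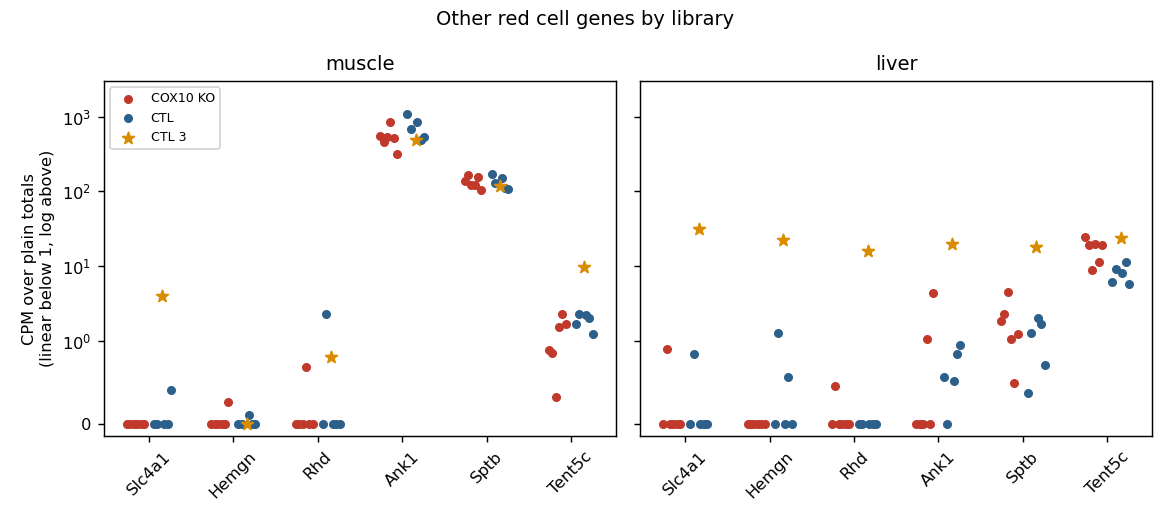
Plain CPM of 6 other red cell genes, chosen for display after their values were seen, in each muscle and liver library, with a scale linear below 1 and logarithmic above, COX10 KO in red, CTL in blue and CTL 3 as a star. In liver the star lies above the other libraries for 5 of the 6 genes, Tent5c excepted, and in muscle for Slc4a1 and Tent5c.

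In liver the same genes tell whether a muscle defect went with more or less blood mRNA in a distant organ. Hba-a1 had 611.6, 577.1, 795.5, 135, 1019 and 174.6 CPM in COX10 KO liver 1 to 6, against 121.4, 426.5, 5116, 1421, 185.5 and 168.9 CPM in CTL liver 1 to 6. Both groups held low libraries, 4 and 6 of COX10 KO and 1, 5 and 6 of CTL, and they overlapped. Hba-a2 followed the same libraries, with 81.8 to 534 CPM in COX10 KO liver (median 343) and 78.8 to 2835 CPM in CTL liver (median 178). Hbb-bs had 644.5, 731.8, 743.1, 1767, 1125 and 1517 CPM in COX10 KO liver, against 1063, 630.9, 5926, 1298, 1357 and 1160 CPM in CTL liver. The COX10 KO libraries lowest in Hba-a1, 4 and 6, were here the highest of their group. Hbb-bt was the steadiest member outside CTL liver 3, with 86.8 to 131 CPM in COX10 KO liver and 98 to 207 CPM in the other 5 CTL liver libraries.

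None of the 5 genes was called in liver, where 0.0927% of the 9707 genes tested were called. At an unadjusted p under 0.05, 1 of the 5 stood, Alas2, against 4.98% of all genes, and DESeq2 called none. The log2 fold changes were -0.97 for Hba-a1 (SE 0.83), -1.04 for Hba-a2 (SE 0.80), -0.82 for Hbb-bs (SE 0.54), -1.33 for Hbb-bt (SE 0.64) and -1.46 for Alas2 (SE 0.54), with adjusted p between 0.838 and 0.997 (edgeR). Without CTL liver 3 they were 0.30, 0.19, -0.00, -0.14 and -0.85 in the same order. With sex taken from sex-linked transcripts in place of the labels, which differ in CTL liver 1 and 4, they were -0.17 for Hba-a1, -0.24 for Hba-a2, -0.79 for Hbb-bs, -1.18 for Hbb-bt and -1.51 for Alas2.

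Macrophage markers were lower in COX10 KO liver, as the members were on average. No correlation of these markers with the globin share over the liver libraries is given here. CTL liver 3 was highest in both, at 1543 plain CPM and 1.60%. The next highest in these markers, CTL liver 2, had 1428 plain CPM at a globin share of 0.161%. The lowest, COX10 KO liver 5, had 234 plain CPM at 0.271%. All 13 tested were lower in COX10 KO liver, with a median log2 fold change of -1.18, and 10 had an unadjusted p under 0.05, though none was called. Their sum over 14 genes was 234 to 575 plain CPM in COX10 KO liver and 350 to 1543 plain CPM in CTL liver, and no marker was at 0. C1qc, a complement subunit made by macrophages, averaged 26 ± 9.41 CPM in COX10 KO liver and 78.7 ± 36.3 CPM in CTL liver (SD, n = 6 each, log2 fold change -1.54, adjusted p = 0.179, edgeR). Their part in the members' values was not tested.

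Alas2 parted from the globins in liver. It had 17.1, 19.6, 32.7, 30.3, 16.7 and 11.2 CPM in COX10 KO liver, against 13.4, 11.9, 102.9, 36.7, 90.3 and 98.9 CPM in CTL liver. Its high CTL libraries were 3, 5 and 6, of which 5 and 6 were among the lowest for the alpha genes. Set against the 4 globin genes, Alas2 had, for every 1000 globin counts, 50.3 in CTL liver 5 and 64.4 in CTL liver 6, against 5.77 to 15.7 in the other 10 liver libraries, 1.29 to 7.38 in muscle and 4.13 to 8.56 in hypothalamus. Apex2, whose span covers Alas2 on the opposite strand, had 4.8 and 7.6 plain CPM in CTL liver 5 and 6, within a liver range of 4.8 to 29.7. Since the strand setting is not known, these levels do not show to which gene reads of the overlap were counted. In all, 2 genes overlap Alas2 on the opposite strand, and only Apex2 was looked at. Their part in the Alas2 values was not tested. An exact two-sided permutation test of Alas2 over the 12 livers gave p = 0.0952.

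**Figure D3:**
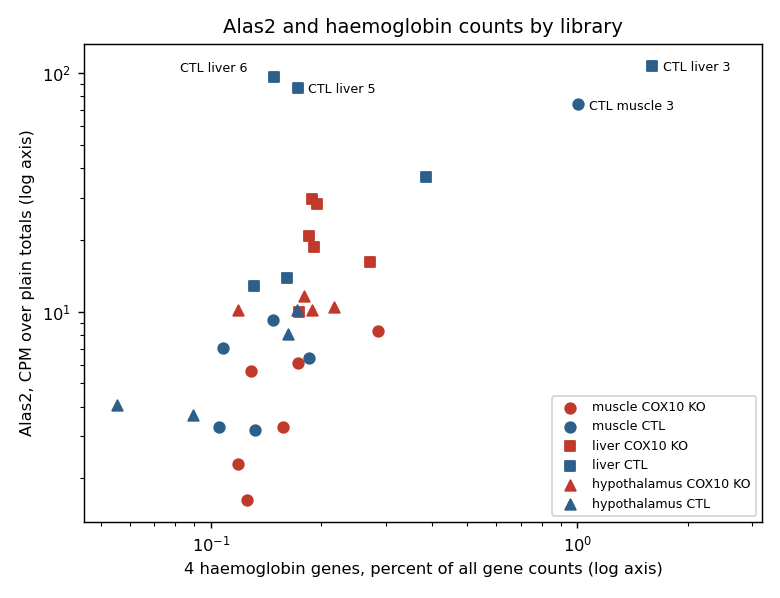
Each point is a library, with the share of gene counts in the 4 globin genes on the x axis (percent, log) and Alas2 in plain CPM on the y axis (log), circles for muscle, squares for liver, triangles for hypothalamus, COX10 KO in red and CTL in blue. CTL liver 5 and 6 lie at 86.7 and 95.9 CPM of Alas2 at globin shares of 0.172% and 0.149%, apart from the other libraries of that share.

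In the hypothalamus every member was higher in COX10 KO on average, the opposite direction to the averages in muscle and liver, and no library stood apart. The direction in muscle and liver rested in part on CTL 3. Without CTL muscle 3 the log2 fold changes of Hbb-bs (0.36) and Hbb-bt (0.15) were positive. Without CTL liver 3 those of Hba-a1 (0.30) and Hba-a2 (0.19) were positive. The other members stayed negative in these fits. Hba-a1 had 393.4, 490.5, 448 and 355.1 CPM in COX10 KO hypothalamus, against 159.6, 426, 339.4 and 104.9 CPM in CTL hypothalamus, and COX10 KO libraries 2 and 3 exceeded the whole CTL range. Alas2 had 10.6, 11.4, 10.3 and 10.5 CPM in COX10 KO hypothalamus, against 4.28, 7.89, 10 and 3.65 CPM in CTL hypothalamus. On this scale all 4 COX10 KO libraries were above all 4 CTL libraries, as were 0.674% of all genes tested. On plain totals the groups overlapped, with 10.2043 CPM in CTL hypothalamus 3 and 10.1221 CPM in COX10 KO hypothalamus 1. The counts of Alas2 were 15 to 91 in these libraries. Hba-a2 had 230 to 296 CPM in COX10 KO and 80.1 to 262 CPM in CTL hypothalamus. Hbb-bs had 544 to 1481 CPM in COX10 KO and 274 to 1014 CPM in CTL hypothalamus, and Hbb-bt 66.0 to 104 CPM and 41.5 to 99.4 CPM.

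None of the 5 genes was called in hypothalamus, and the percentage of the 13504 genes called was 0. At an unadjusted p under 0.05 there were 211 genes (1.56%), with Alas2 the only member among them, and DESeq2 called no member. The log2 fold changes were 0.71 for Hba-a1 (SE 0.36, 95% interval -0.07 to 1.5), 0.61 for Hba-a2 (SE 0.33), 0.54 for Hbb-bs (SE 0.38), 0.27 for Hbb-bt (SE 0.27) and 0.76 for Alas2 (SE 0.31, 95% interval 0.08 to 1.43, adjusted p = 1.00, edgeR). The exact two-sided permutation test of Alas2 gave p = 0.0286, the smallest that 4 against 4 allows, and p = 0.0857 on plain totals. These shuffle all 8 libraries, and the edgeR fit had no term for the numbers. Yet the deviations of libraries of equal number were positively correlated over all genes (0.2036 to 0.8053). For number 4 a correlation with another number was higher (0.4686 against 0.3081), and the labels state no pairs. Within the 4 pairs of equal number, Hba-a1, Hba-a2, Hbb-bs and Alas2 were higher in COX10 KO in 4 of 4 and Hbb-bt in 3 of 4. The share of all genes higher in 4 of 4 pairs is not given here. The exact two-sided permutation test within pairs gave p = 0.125 for the 4 genes other than Hbb-bt, the smallest that 4 pairs allow. It gave 0.375 for Hbb-bt. Ttr, made in brain by the choroid plexus, had 3002, 4196, 5239 and 4910 plain CPM in COX10 KO hypothalamus, against 2508, 2872, 2618 and 1243 plain CPM in CTL hypothalamus. Its log2 fold change was 0.91 (SE 0.29, adjusted p = 1.00, edgeR), and its part in the globin values was not tested.

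**Figure D4:**
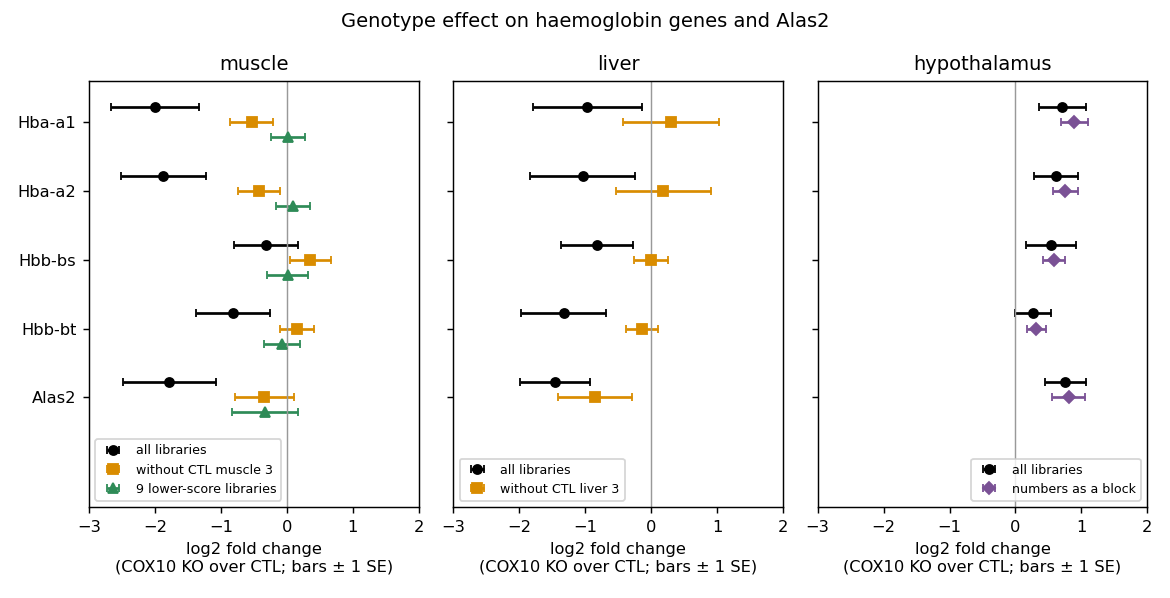
Log2 fold change of COX10 KO over CTL on the x axis for each gene and tissue, with bars of 1 SE, for all libraries (circles), without CTL 3 of that tissue (squares), in the 9 lower-score muscle libraries described with the chain ratio (triangles), and with replicate numbers as a block in hypothalamus (diamonds). In muscle Hba-a1 lies at -2.0 with all libraries, at -0.53 without CTL 3 and at 0.02 in the 9 libraries. Those 9 leave out CTL muscle 3, 5 and 6, the highest in Hba-a1.

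The genotype effects were also compared between sexes and between tissues. By labelled sex, no member passed the test of a different effect in males and females (adjusted p = 1.00, edgeR), and 0% of genes were called in either tissue. The differences with an unadjusted p under 0.05, male minus female on the log2 scale, were 1.87 for Hbb-bs (SE 0.83) and 2.23 for Hbb-bt (SE 0.91) in muscle and 2.05 for Hbb-bs (SE 0.91) in liver, where CTL 3 is labelled female in both tissues. With sex from sex-linked transcripts the liver differences were 3.29 for Hba-a1 (SE 1.13), 3.12 for Hba-a2 (SE 1.07), 2.18 for Hbb-bs (SE 0.85) and 2.52 for Hbb-bt (SE 0.96), all with an unadjusted p under 0.05, and -0.62 for Alas2 (SE 1.04). No member was called there either (adjusted p = 1.00, edgeR), and 1 gene was called in all. The share of all genes with an unadjusted p under 0.05 is not given here for the differences between sexes. By these transcripts CTL liver 4 joins CTL liver 3 among the females, with Hba-a1 at 1421 and 5116 CPM. CTL liver 1, at 121.4 CPM, joins the males. Between tissues no member was called, against 2.83% of genes for muscle minus liver, 0.891% for muscle minus hypothalamus and 0% for liver minus hypothalamus. The difference nearest to a call was Alas2 in muscle minus hypothalamus, -2.46 on the log2 scale (SE 0.96, adjusted p = 0.277, edgeR), and -1.01 without the CTL 3 libraries.

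The ratio of alpha to beta chain counts split the libraries of muscle and liver into 2 classes that crossed the genotypes in liver. The log2 ratio of Hba-a1 plus Hba-a2 to Hbb-bs plus Hbb-bt was -1.91, -2.06, -1.97, -2.09, -2.37 and -2.96 in COX10 KO muscle, against -2.17, -2.58, -0.20, -2.32, -0.12 and 0.24 in CTL muscle. In liver it was 0.35, 0.10, 0.60, -3.11, 0.31 and -2.46 in COX10 KO, against -2.55, -0.14, 0.11, 0.63, -2.27 and -2.26 in CTL. In hypothalamus it was 0.05, -0.31, -0.66 and -1.44 in COX10 KO, against -0.24, -0.39, -0.94 and -1.92 in CTL, and the libraries numbered 4 were the lowest of both groups. How reads shared within a pair enter this ratio was not tested. No value lay between -1.91 and -0.20 in muscle or between -2.26 and -0.14 in liver.

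A like division was found over other genes. A score for each library was taken from the main axis of the liver libraries over 2827 other genes, which held 43.2% of their variance, and libraries of muscle and liver were divided at the widest gap that left at least 2 on each side. The upper class held CTL muscle 3, 5 and 6, COX10 KO liver 1, 2, 3 and 5 and CTL liver 2, 3 and 4, and it was the class with log2 ratios of -0.20 to 0.24 in muscle and -0.14 to 0.63 in liver. The lower class held all 6 COX10 KO muscle libraries, CTL muscle 1, 2 and 4, COX10 KO liver 4 and 6 and CTL liver 1, 5 and 6, with ratios of -2.96 to -1.91 in muscle and -3.11 to -2.26 in liver. These classes come from the data, are no group of the study and no batch named in the labels, and were drawn after the ratio had been seen. Nmt1 and Rac1, the genes that followed the chain ratio most closely in muscle and liver with opposite sign, gave a log2 Nmt1 to Rac1 ratio of -0.26, -0.35, -0.99 and -1.35 in COX10 KO hypothalamus and -0.21, -0.61, -1.18 and -2.09 in CTL hypothalamus, which had no part in their choice.

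The classes of liver differed in the alpha chains and overlapped in the beta chains. In liver the summed alpha counts were 766 to 8303 plain CPM in the upper class and 192 to 295 plain CPM in the lower class, and the summed beta counts 752 to 7692 and 1119 to 1742 plain CPM. In muscle all 6 COX10 KO libraries were in the lower class, so genotype and class overlap in part. The upper class there held CTL libraries alone, with summed alpha counts of 505 to 4681 plain CPM. The lower class had 192 to 363 plain CPM. The muscle fits by class set these high CTL libraries apart, so they cannot tell class from genotype for the alpha genes. With class as a term in muscle the log2 fold changes were 0.05 for Hba-a1, 0.11 for Hba-a2, 0.06 for Hbb-bs, 0.01 for Hbb-bt and -0.33 for Alas2. Within the lower class of muscle alone (6 COX10 KO against 3 CTL) they were 0.02, 0.10, 0.01, -0.08 and -0.33 in the same order, with adjusted p between 0.786 and 0.989 (edgeR). In liver, with class as a term, they were -1.02, -1.0, -0.82, -1.32 and -1.49, and CTL liver 3 is in the upper class. In the upper class alone they were -1.63, -1.66, -1.69, -2.37 and -1.28, and without CTL liver 3 -0.30, -0.45, -0.25, -0.43 and -0.21. In the lower class of liver they were -0.03, 0.07, 0.47, 0.03 and -1.71. Within the pairs the proportions were steadier: Hba-a1 gave 56.7% to 66.3% of alpha counts and Hbb-bs 80.5% to 94.3% of beta counts over all 32 libraries, as far as the shared reads allow. What divides the classes was not tested.

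**Figure D5:**
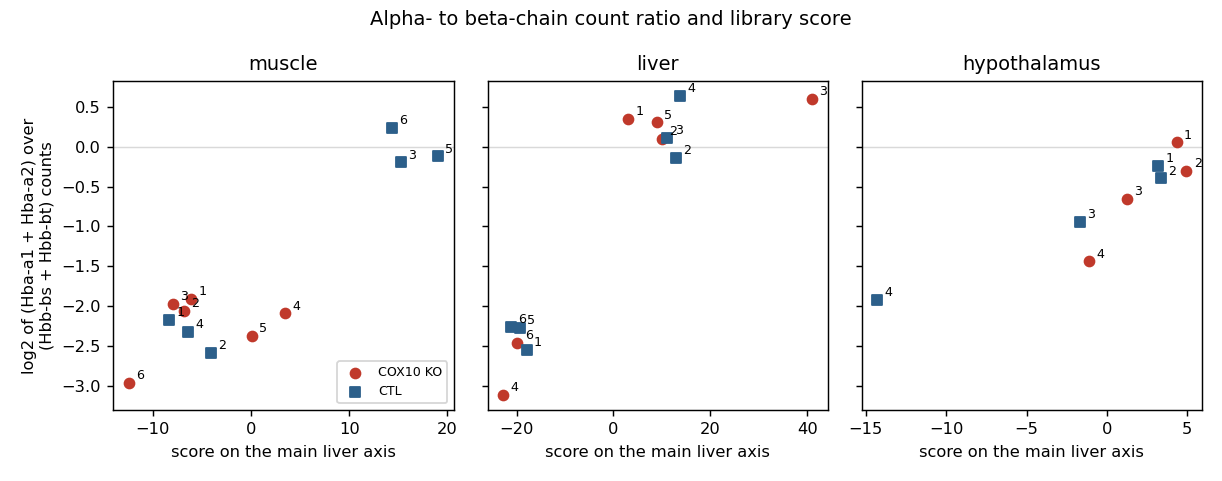
Log2 ratio of alpha to beta chain counts on the y axis against the score of each library on the main liver axis on the x axis, with COX10 KO as red circles and CTL as blue squares, numbered by replicate. In muscle 3 CTL libraries lie apart at ratios of -0.20 to 0.24, and in liver both genotypes are found on both sides of the gap.

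The genes around haemoglobin were read in lists. The members' median log2 fold change was -1.78 in muscle, -1.04 in liver and 0.61 in hypothalamus, against -0.03, -0.02 and -0.01 over all genes tested. Over all genes tested in muscle, 6.9% were called higher and 7.43% lower in COX10 KO. Of 17 other red cell genes tested there, 2 fell, Epb41, a membrane skeleton protein of many cell types (-0.75, adjusted p = 0.0280), and Bnip3l, a mitophagy receptor used in red cell maturation (-0.67, adjusted p = 0.0374, both edgeR), and the median of the list was -0.31. Of the 13 haem synthesis genes tested none passed, and Alas1 averaged 20.8 ± 19.8 CPM in COX10 KO muscle and 37.0 ± 25.6 CPM in CTL muscle (SD, n = 6 each). Neither of the 2 genes of haem A synthesis passed.

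Of 20 genes of haemoglobin, haem and iron clearance tested in muscle, 2 rose and 1 fell, a share close to the 14.3% of all genes. Hmox1, the inducible haem oxygenase that opens the haem ring, averaged 5.18 ± 2.11 CPM in COX10 KO muscle and 1.16 ± 1.30 CPM in CTL muscle (SD, n = 6 each), a log2 fold change of 2.84 (SE 0.55, adjusted p = 0.00339, edgeR). Hmox2, the constitutive oxygenase, rose by 0.54 (adjusted p = 0.0272), and Hfe2, haemojuvelin, an iron sensor of muscle and liver, fell by 0.92 on the log2 scale (adjusted p = 0.0204, both edgeR). Of 9 macrophage genes 3 rose, with Cd68, a lysosomal protein of macrophages, at 53.3 ± 11.1 CPM in COX10 KO muscle and 3.82 ± 1.91 CPM in CTL muscle (SD, n = 6 each, log2 fold change 3.79, adjusted p = 7.51e-07, edgeR). Of 9 genes of erythropoietin and hypoxia 3 rose, Vegfa by 1.06, Egln3 by 1.18 and Adm by 0.93 on the log2 scale. Of 13 endothelial genes 1 fell, near the 7.43% over all genes, Vwf (-1.20, adjusted p = 0.0207, edgeR). By direction alone 6 of the 13 were lower and 7 higher in COX10 KO muscle. The summed endothelial markers had a median of 451 plain CPM in COX10 KO muscle and 400 plain CPM in CTL muscle. Ighm, the IgM heavy chain and the single lymphocyte gene tested, fell by 2.93 on the log2 scale (adjusted p = 0.000538, edgeR). The lists were not refitted with library class as a term. In liver and hypothalamus no gene of any list was called.

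Within tissues the members rose and fell together to different degrees. As a description over 12 libraries centred on the genotype means, the correlation of each gene with the mean of the 5 was 0.94 for Hba-a1, 0.92 for Hba-a2, 0.85 for Hbb-bs, 0.95 for Hbb-bt and 0.94 for Alas2 in muscle, and each gene is part of that mean. In liver it was 0.69 for Hbb-bs and 0.53 for Alas2, against 0.91 to 0.92 for the other 3. Of 8251 genes tested in all 3 tissues, the one with the highest lowest correlation was Mxd4 (0.65), followed by Isg20 (0.64) and Arrb1 (0.62). In liver the closest were Fndc3b (0.93) and Spp2 (0.93), and in muscle Rsad2 (0.89). CTL 3 and the library classes enter all of these values.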

How the data were processed

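RNA of 32 tissue samples was made into 3′ end libraries and read single-end to 86 bases. Per the labels and the study's methods, the authors trimmed reads with BBDuk, aligned them with STAR 2.5.0a to GRCm38.p6 with gene counting by HTSeq 0.6.1. The deposited values are raw counts per gene, not normalized, in 1 table for each library. Identifiers were matched to GENCODE symbols (55141 of 55401), and promoters are RefSeq's. Groups came from the labels.

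COX10 KO and CTL were compared in each tissue with the quasi-likelihood test of edgeR 4.0.16 (TMM factors, filterByExpr, with a term for labelled sex except in hypothalamus) in R 4.3.3, with Benjamini-Hochberg adjustment over all genes tested and a threshold of 0.05. Two-sided exact permutation tests used CPM (SciPy 1.17.1), and DESeq2 1.42.0 and sex from sex-linked transcripts in liver were alternatives. The fits were run on simulated counts with known changes. Those counts held no outlying library, no library classes and no pairs, so that run does not bear on these features. The members and gene lists were chosen with earlier results of these data known. Genes named beside the members are up to 4 per list, taken by smallest p, and those most like the members' mean, unless said otherwise, and 1 gene of the red cell list is not reported here by name. In hypothalamus, the deviations of libraries of equal number were positively correlated (0.8053, 0.2036, 0.3952 and 0.3081 for numbers 1 to 4). The main fit there has no term for the numbers. They were taken as pairs only in the replicate block and in the permutation within pairs. For number 4 a correlation with another number was higher (0.4686), and the labels state no pairs. The replicate block changed no call of a member, and permutation within pairs was added after the data were seen.

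The library score and classes were settled after the data had been seen, after GC content, the first principal component of each tissue and the Nmt1 to Rac1 ratio had also been looked at. The condition of at least 2 libraries on each side of the gap was added because the widest gap in liver otherwise set COX10 KO liver 3 alone apart. Totals ranged from 434494 to 22321322 counts.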

Additional observations from a re-analysis of the deposited data

Results flagged for a closer look

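Of 36 groups of values examined for a library far from the rest, 14 held one, where chance gives about 1 in 20. CTL muscle 3 stood apart for Hba-a1 (3307 CPM), Hba-a2 (1918 CPM), Hbb-bs (5059 CPM), Hbb-bt (930 CPM), Alas2 (82.7 CPM) and the globin share (1.00%). CTL liver 3 stood apart for Hba-a1 (5116 CPM), Hba-a2 (2835 CPM), Hbb-bs (5926 CPM), Hbb-bt (1440 CPM) and the globin share (1.60%). COX10 KO muscle 6 stood apart for Hbb-bs (2119 CPM) and the globin share (0.286%), and COX10 KO liver 5 for the globin share (0.271%). The groups are not independent, since the globin share sums 4 of the genes.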

How the results depend on the processing

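Of 441 alternative values, 177 that left out 1 library and 216 of the others kept direction and side of the threshold. In muscle no member was called, but DESeq2 called 1, the fit without a filter 4, without the sex term 2, libraries thinned to the shallowest COX10 KO library 1, and leave-one-out 0 to 2 (2, Hba-a1 and Hba-a2, without CTL 1, 2 or 4, and 1, Alas2, without COX10 KO 6). In liver the fit without a filter called 1, Alas2. With the first principal component of the other genes as a covariate, an alternative added after the data were seen, the muscle log2 fold changes were 1.08 for Hba-a1 (SE 2.13) and 0.94 for Hba-a2 (SE 2.08), turning both directions, and -1.28, -0.59 and -0.28 for Hbb-bs, Hbb-bt and Alas2. That component separated all COX10 KO from all CTL muscle libraries, so the fit leaves little to estimate the genotype. Other alternatives added after seeing the data also turned directions. In muscle the upper class held CTL libraries alone, so the fits by class there cannot tell class from genotype. With library class as a term, muscle gave 0.0508 for Hba-a1, 0.11 for Hba-a2, 0.0646 for Hbb-bs and 0.013 for Hbb-bt, and lower-class muscle alone 0.0181 for Hba-a1, 0.0987 for Hba-a2 and 0.0147 for Hbb-bs. Lower-class liver alone gave 0.0743 for Hba-a2, 0.47 for Hbb-bs and 0.0251 for Hbb-bt, and muscle without CTL 2 and 3 gave 0.41 for Hbb-bs and 0.19 for Hbb-bt. Males alone gave 0.66 for Hbb-bs and 0.35 for Hbb-bt in muscle and 0.20 for Hbb-bs in liver. With sex from sex-linked transcripts, liver Hba-a1 was -0.17 and Hba-a2 -0.24, against -0.97 and -1.04. Leaving out 1 library gave -0.56 to 0.36 for Hbb-bs and -1.06 to 0.15 for Hbb-bt in muscle, and -1.71 to 0.30 for Hba-a1 and -1.65 to 0.19 for Hba-a2 in liver, positive without CTL 3 alone. The replicate block, where numbers of muscle and liver were not shown to pair, gave 0.0031 for muscle Hbb-bs and called 533 higher and 454 lower genes in muscle, against 803 and 865, and changed no call of a member. Apart from what is shown here, causes were not tested.

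Alas2 was limited by depth in muscle, with 4 to 183 counts, and was not tested there under the filter of 10 counts in every library.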

Other observations

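The embryonic globin genes Hba-x, Hbb-bh0, Hbb-bh1 and Hbb-bh2 had 0 counts in all 32 libraries, which at 157874140 counts in total allows up to 0.0190 CPM, and Hbb-y had 3 counts, all in COX10 KO hypothalamus. The theta globin genes Hbq1a and Hbq1b had at most 8 counts in any tissue. Of the globins outside red cells, myoglobin (Mb), the oxygen store of muscle, averaged 867 ± 239 CPM in COX10 KO muscle and 1454 ± 1060 CPM in CTL muscle (SD, n = 6 each, log2 fold change -0.54, adjusted p = 0.334, edgeR). Neuroglobin (Ngb) averaged 29.8 ± 9.94 CPM in COX10 KO hypothalamus and 27.2 ± 9.43 CPM in CTL hypothalamus (SD, n = 4 each), and cytoglobin (Cygb) 50.9 ± 14.9 CPM in COX10 KO muscle and 53.3 ± 16 CPM in CTL muscle (SD, n = 6 each).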
